A study of Caenorhabditis elegans with 3 samples.

Results

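The ceh genes are the C. elegans homeobox genes that carry the ceh name. Members were the protein-coding genes whose Ensembl symbol starts with ceh-, other than ceh-2, ceh-13 and ceh-16, and there were 60 of them among 19973 nuclear protein-coding genes. Each gene was given a window that ran from 5000 bp upstream of its first annotated 5′ end to its 3′ end. A peak was counted at a gene when its summit, the base where the caller placed the top of the peak, lay in that window. The comparison throughout was with the other 19913 protein-coding genes.

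The peaks came from chromatin immunoprecipitation of the zinc finger factor BED-3 in 3 biological replicates of 1 group, numbered 1, 3 and 4. All replicates were whole embryos of mixed stage and mixed sex from strain OP651, collected by bleaching, with an age of 4 hours on the labels. The strain carries the unc-119 allele tm4063 and the transgene wgIs651, which holds bed-3 fused to TY1, EGFP and 3xFLAG together with an unc-119(+) rescue. A single transgenic line was used, the antibody was raised against GFP, and whole embryos mix all cell types. No untagged precipitation was analysed here, so a peak is not shown to be a site that BED-3 occupied. Nothing in the labels or files compares conditions, and the values below are descriptions without tests.

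Homeobox genes encode transcription factors with a homeodomain, a helical fold that binds short AT-rich DNA, often around a TAAT core. In C. elegans these genes set the identity of many neurons and also act in muscle, pharynx, epidermis and gonad. They fall into classes by their homeodomain and by partner domains, such as the POU-specific domain, the LIM domains, the sine oculis domain, the CUT domain and the TALE extension.

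Most ceh genes had at least 1 entry of the pooled list, and few had a strong one. The pooled list was deposited as peaks and background, the input to the irreproducible discovery rate step. An entry in it, called a peak here, therefore need not be reproducible. The optimal list, which that step gave, holds 589 peaks, fewer than the 3000 taken as strong below. Of the 60 ceh genes, 46 (76.7%, exact 95% interval 64.0% to 86.6%) held a summit of the pooled list, against 70.3% of other coding genes. Among other coding genes with windows of similar length the share was 71.6%, which would correspond to 42.9 of 60. Strength was read as the rank of a peak by the authors' signal within its list, and the 3000 highest of the 30000 pooled peaks were taken as strong. A strong pooled summit lay in the windows of 7 ceh genes (11.7%, 4.82% to 22.6%), against 19.0% of other coding genes and 19.6% of those with similar windows, or 11.8 of 60. These genes were ceh-39, ceh-5, ceh-43, ceh-21, ceh-41, ceh-86 and ceh-51. The interval for the ceh genes covers both shares of the other genes. It treats genes as separate draws, although ceh-21 and ceh-41 share a strong summit, and the shortfall was not tested. The shortfall depended on the window: with a flank of 10000 bp the order turned round, at 18 of 60 ceh genes, against 27.1% of other coding genes. These intervals cover counting error only.

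**Figure D1:**
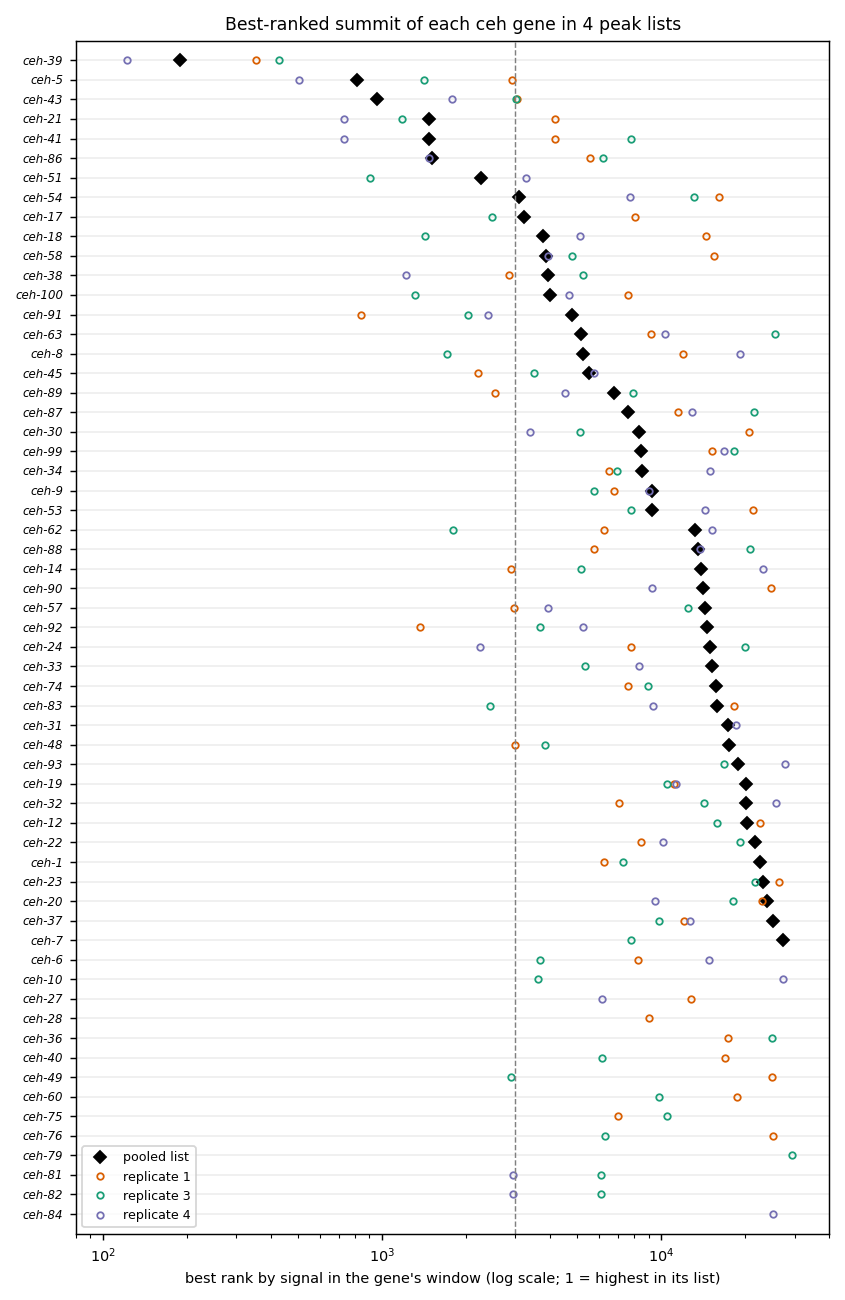
Best rank by signal in the window of each ceh gene (rows, ordered by pooled rank) on a log axis where 1 is the highest in a list. Filled diamonds are the pooled list, open circles are replicates 1, 3 and 4, and the dashed line is at rank 3000. The pooled diamond of ceh-39 stands at rank 188, those of 6 other genes lie between ranks 810 and 2258, the rest lie beyond the line, and the 14 lowest rows have no diamond.

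The CUT and ONECUT class, whose proteins join a CUT domain to the homeodomain, had 6 members here, as its listed ceh-44 had no match among the ceh symbols, and 3 of them held a strong pooled summit. Those 3, ceh-39, ceh-21 and ceh-41, lie close together on chromosome X, with T26C11.9 between ceh-39 and ceh-21, and ceh-21 and ceh-41 share 1 of those summits, so they are not separate cases. The highest summit of the whole ceh set lay 2679 bp upstream of ceh-39, a ONECUT gene known as an X-linked signal that lowers expression of the sex-determination switch xol-1. Its peak spanned chrX:1858733-1858930 (WBcel235, the ce11 assembly), ranked 188 in the pooled list with a signal of 255, and was the 1 peak of the optimal list in any ceh window. The summit ranked 354 in replicate 1 with a signal of 47.1, 426 in replicate 3 with 40.1, and 122 in replicate 4 with 179. Signals are not comparable between lists, but all 3 ranks were among the 500 highest. The summit lay inside the tRNA gene WBGene00023152, on the strand opposite to ceh-39, and the nearest coding 5′ end was that of T26C11.8 at 1871 bp. Of 66 overlapping 36-base words around the summit, 13 (19.7%) occur once in the nuclear genome, while at the other 6 strong pooled sites and at the ceh-54 site all 66 do. What the tRNA gene and the repeated words contribute to the peak was not tested.

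The other strong sites differed in kind, and the DNA at 5 strong summits is shown because it makes those differences visible. The strong summits at rank 810, upstream of ceh-5, and at rank 2585, upstream of ceh-21, are not shown. Each line gives 101 bases of the + strand of WBcel235 centred on the pooled summit, and capitals mark matches on either strand to the homeodomain core TAAT and to GTTCGA, letters found in the internal promoter of many tRNA genes.
ceh-39, chrX:1858801-1858901: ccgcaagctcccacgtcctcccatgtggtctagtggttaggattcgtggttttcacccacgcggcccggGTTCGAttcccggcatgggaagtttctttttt
ceh-43, chrIII:4449455-4449555: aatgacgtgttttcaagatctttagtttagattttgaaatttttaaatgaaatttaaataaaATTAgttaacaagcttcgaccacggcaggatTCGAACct
ceh-21 and ceh-41, chrX:1850666-1850766: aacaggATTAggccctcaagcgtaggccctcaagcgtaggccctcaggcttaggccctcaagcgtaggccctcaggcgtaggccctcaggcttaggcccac
ceh-86, chrII:2432727-2432827: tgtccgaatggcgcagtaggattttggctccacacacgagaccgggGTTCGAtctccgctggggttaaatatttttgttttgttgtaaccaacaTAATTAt
ceh-51, chrV:18874687-18874787: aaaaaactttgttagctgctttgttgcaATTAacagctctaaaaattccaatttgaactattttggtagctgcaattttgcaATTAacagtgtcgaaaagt
The ceh-39 window holds GTTCGA within the tRNA gene and no TAAT, and 56.4% of its bases are G or C. The ceh-43 window is AT-rich, with 28.7% G or C, and runs at its right end into a tRNA gene. In the window shared by ceh-21 and ceh-41 a short block recurs along the line, so that 91.5% of bases equal the base 42 bp further on, and 63.4% are G or C. The ceh-86 window holds both motifs although no annotated gene lies within 50 bp of its summit. The ceh-51 window, with 30.7% G or C, holds ATTA at 2 places and no GTTCGA.

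The ceh-43 site lay in an intron. This gene, a relative of Distal-less that acts in anterior epidermis and dopaminergic neurons, had a pooled summit at rank 961 with a signal of 95.8, 438 bp downstream of its 5′ end and 28 bp from the tRNA gene WBGene00014268 (chrIII:4449533-4449605). Replicate 1 had a summit within 100 bp at rank 3036 and replicate 4 at rank 1999, while replicate 3 had none. A second ceh-43 summit, at pooled rank 28559, lay on the far side of the same tRNA gene at 100 bp. It was matched in replicate 3, at rank 3026, and in neither replicate 1 nor replicate 4. Replicate 3 thus had a summit near this tRNA gene, though not within 100 bp of the stronger pooled summit.

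The block-repeat site lay 2020 bp inside ceh-21, in an intron, and also 2041 bp upstream of ceh-41, so it was counted at both ONECUT genes. It ranked 1470 in the pooled list with a signal of 83.0 and 727 in replicate 4, and neither replicate 1 nor replicate 3 had a summit within 100 bp. A further strong summit, at rank 2585, lay 1055 bp upstream of ceh-21 but only 58 bp from the 5′ end of its neighbour T26C11.9. That site ranked 1177 in replicate 3 and 2055 in replicate 4 and was absent from the list of replicate 1. Across the 14565 bp from the 3′ end of ceh-41 to the upstream end of the ceh-39 window, the pooled list had 7 summits. Replicate 1 had 3 there, replicate 3 had 6 and replicate 4 had 9. The tRNA site upstream of ceh-39 was the single place in that stretch where all replicates had a strong summit.

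**Figure D2:**
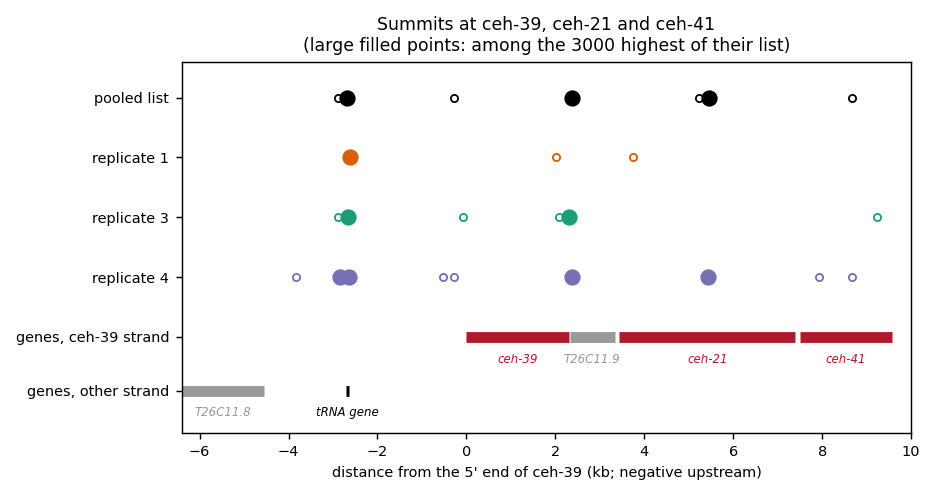
Summits of the pooled list and of replicates 1, 3 and 4 along the neighbouring genes ceh-39, ceh-21 and ceh-41, by distance in kb from the 5′ end of ceh-39, with genes drawn to scale on 2 strands. Large filled points are among the 3000 highest of their list, and they line up in all 4 rows at the tRNA gene, near -2.68 kb.

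At ceh-86, a homeobox gene outside the class lists, the pooled summit ranked 1512 with a signal of 82.2 and lay 705 bp upstream, in the promoter window, which covers the 1000 bp before a 5′ end of the gene and the 200 bp after it. It was found in every replicate, at rank 5565 in replicate 1, 15285 in replicate 3 and 1472 in replicate 4, so it was strong in replicate 4 alone. The ceh-51 summit, at rank 2258, lay 604 bp downstream in an intron that emb-4 overlaps. It ranked 905 in replicate 3 and 3264 in replicate 4 and had no match in replicate 1. The ceh-51 gene is known for its part, with tbx-35, in specifying mesoderm of the MS lineage in the early embryo.

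At ceh-5, a relative of the vertebrate VAX genes, the strongest pooled summit ranked 810 with a signal of 104, but it lay 4791 bp upstream, at chrI:9722150-9722605. The closest coding 5′ end was that of eat-16, at 338 bp. It ranked 1407 in replicate 3 and 504 in replicate 4, with no match in replicate 1. A second ceh-5 summit, at pooled rank 4742, lay 601 bp upstream in the promoter window and was found in all replicates, at rank 21749 in replicate 1, 2621 in replicate 3 and 14327 in replicate 4. Both sites overlap ocrl-1, a neighbouring gene.

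Beyond the strong sites, the share of members with any pooled summit varied between classes, most of which are small. Among other coding genes 70.3% held a pooled summit and 19.0% a strong one, and differences of the classes from these shares were not tested. All 3 genes of the sine oculis class held pooled summits, 13 together, as 1 summit was counted at both ceh-33 and ceh-34. There were 3 at ceh-32, 6 at ceh-33 and 5 at ceh-34, a regulator of pharyngeal neurons. Yet the best of them ranked 8543. It lay 3583 bp upstream of ceh-34, and its nearest coding 5′ end was that of ceh-33 at 1506 bp. Of 17 NK-like and other ANTP genes 15 held a summit, and apart from ceh-5, ceh-43 and ceh-51 none was strong. The 6 summits at ceh-9 fell in a window of 6305 bp and the best ranked 9256. The 2 POU genes differed, as ceh-18, which acts in gonadal sheath cells, had 8 summits with the best at rank 3777, and ceh-6 had none. The single LIM gene, ceh-14, a relative of Lhx3, had 5 summits with the best at rank 13893. Of 6 paired-like genes 4 held a summit, led by ceh-17, the Phox2 relative that acts in neurite growth, at rank 3220 and 685 bp upstream. Of the 3 PBC genes of the TALE group only ceh-20, the Extradenticle and PBX relative, had any pooled summit, and its best ranked 23980. The 22 genes outside the class lists included 16 with a summit and, at ceh-86, 1 with a strong one.

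Pooled summits were absent from the windows of 14 ceh genes, namely ceh-6, ceh-10, ceh-27, ceh-28, ceh-36, ceh-40, ceh-49, ceh-60, ceh-75, ceh-76, ceh-79, ceh-81, ceh-82 and ceh-84. Each of these had a summit in at least 1 replicate's own list, and 11 (78.6%) had one in 2 or 3 of them. Of the 5916 other coding genes without a pooled summit, 85.1% had one in at least 1 replicate list and 50.7% in 2 or 3, so for both sets an empty window in the pooled list did not mean an empty window in the replicates. In all, 35 ceh genes (58.3%) held a summit in the own list of every replicate, against 57.2% of other coding genes. At the other end, 14 ceh genes (23.3%) held 5 or more pooled summits, against 15.7% of other coding genes, and the most, 13, were at ceh-100, which also has the longest window at 26503 bp. Its best summit ranked 3994 and lay in a coding exon 11709 bp from the 5′ end, at rank 1314 in replicate 3, 6871 in replicate 4 and unmatched in replicate 1.

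By list, the ceh genes with strong summits numbered 10 in replicate 1 (16.7%, against 19.8% of other coding genes), 12 of 60 in replicate 3 (against 19.4%) and 11 in replicate 4 (18.3%, against 18.8%). The mean share over replicates was 18.3% ± 1.7 for ceh genes and 19.3% ± 0.5 for other coding genes (SD, n = 3 each). The difference in the pooled list was thus smaller in replicates 1 and 4 and turned round in replicate 3. The mean shares differed by less than the SD of the ceh share, though by more than the SD of the other share. Both shares come from the same lists, so these SDs do not measure the spread of the difference within lists. Of the ceh genes, 25 were strong in at least 1 replicate (41.7%), against 35.8% of other coding genes, and 20 in exactly 1 (33.3%), against 20.5%. Both ceh-21 and ceh-38, another ONECUT gene, were strong in exactly 2 (3.33%, against 8.22%), and ceh-5, ceh-39 and ceh-91 in all 3 at some place in the window (5.0%, against 7.02%).

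**Figure D3:**
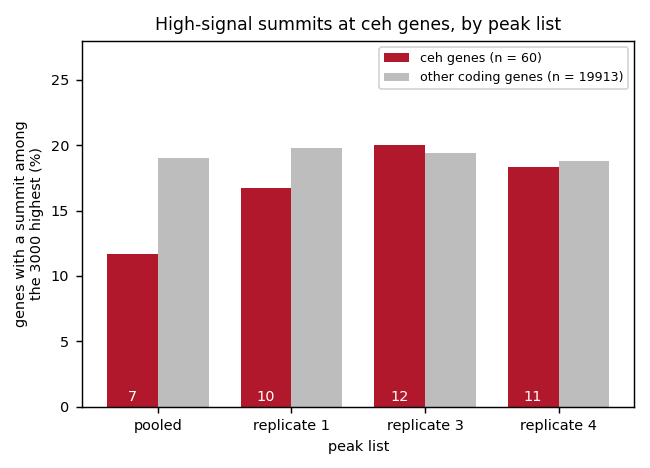
Percent of genes with a summit among the 3000 highest of each list, for ceh genes and other coding genes, in the pooled list and in replicates 1, 3 and 4. The ceh share is 11.7% in the pooled list, against 19.0%, and 16.7% in replicate 1, against 19.8%, and 18.3% in replicate 4, against 18.8%. White digits in the bars count ceh genes, 12 of them in replicate 3.

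Strong in every replicate did not mean strong at the same place. For ceh-91 the leading summits lay 1339 bp upstream at rank 843 in replicate 1, 428 bp upstream at rank 2036 in replicate 3 and 1516 bp upstream at rank 2385 in replicate 4, no pair of them within 100 bp. For ceh-5 the leading summit lay 74 bp upstream in replicate 1, at rank 2917, but 4796 bp and 4816 bp upstream in replicates 3 and 4. The ceh-38 summits at rank 2850 in replicate 1 and rank 1220 in replicate 4 lay 3702 and 4142 bp upstream. Only the ceh-39 site was strong within 100 bp in every replicate, which gives 1 ceh gene of 60 (1.67%), against 4.04% of other coding genes. The optimal list touched the same 1 gene (1.67%, 0.0422% to 8.94%), against 5.02% of other coding genes.

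Recurrence was low across the ceh summits in general. The other coding windows, used for comparison, together held 27618 of the 30000 pooled summits, so they stand close to the whole list. Summits that also lie in ceh windows were not removed from them. Of the 146 pooled summits in ceh windows, 4 (2.74%) had a match within 100 bp in every replicate list at any rank, against 5.28% of summits in other coding windows. Those 4 were at ceh-39, ceh-86, ceh-5 and ceh-54, where the summit lay 24 bp downstream of the 5′ end at pooled rank 3097. A match in no replicate list was found for 29 (19.9%, against 18.7%), in 1 list for 87 (59.6%, against 51.9%) and in 2 lists for 26 (17.8%, against 24.1%). Replicate 1 matched 32 (21.9%, against 32.2%). Replicate 3 matched 47 (32.2%, against 31.8%), and replicate 4 matched the most, 72 (49.3%, against 52.0%). With strong matches required in every replicate, 1 ceh summit (0.685%) remained, against 1.47%. The pooled list was made from the same replicates, so these matches are not independent of it. Set directly against each other, 12 of 99 ceh summits of replicate 1 were matched in replicate 3 (12.1%, against 14.7%), 14 of 99 in replicate 4 (14.1%, against 18.1%), and 19 of 162 of replicate 3 in replicate 4 (11.7%, against 16.6%). All 3 pairs were lower for ceh genes.

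With the depth to which the pooled list was read, the ceh share ran below that of other genes over most of the upper ranks and above it over the lower ones, with no steady narrowing between. Among the 1000 highest pooled peaks 3 ceh genes had a summit (5.0%), against 8.12% of other coding genes. Among the 5000 highest there were 14 (23.3%), against 27.3%, and among the 10000 highest 24 (40.0%), against 42.4%. No further ceh gene was added down to rank 13000, where the share was still 40.0%, against 49.0%. By rank 16000 it was 56.7%, against 54.1%. The best rank of a ceh gene with a summit had a median of 9276, against 7359 for other coding genes, and the summits themselves had a median signal of 36.5, against 39.3. Peak density was alike, at 0.298 pooled summits per kb of ceh window and 0.302 per kb of other coding window. The other coding windows hold most of the pooled list and overlap ceh windows in part, so their value is close to a general average.

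**Figure D4:**
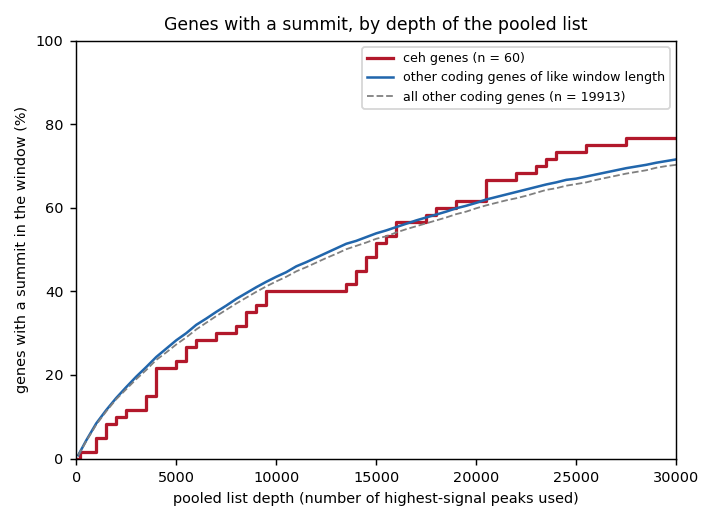
Percent of genes with a pooled summit among the highest peaks, by the number of peaks taken in rank order, for ceh genes, other coding genes and other coding genes of similar window length. The ceh curve lies below the others at 3000 peaks (11.7%, against 19.0% and 19.6%), stays flat between 10000 and 13000 peaks, where the gap is wide (40.0%, against 49.0% and 50.3%), and lies above them by 16000 peaks (56.7%, against 54.1% and 55.4%).

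Within their windows, ceh summits at all ranks had position shares near those of other genes. The promoter window of the ceh gene held 34 of 152 gene and summit pairs (22.4%, 16% to 29.8%), against 23% for other coding genes, while promoter windows made up 17.6% of ceh window bases and 17.7% of the others'. The interval treats pairs as separate draws, although 6 summits were counted at 2 ceh genes and 13 pairs were at ceh-100. Introns held 36 (23.7%), against 22.5%, coding exons 8 (5.26%), against 6.96%, and sequence beyond 1000 bp upstream 70 (46.1%), against 45.1%. Replicate 1 stood apart here, with 33.7% of ceh summits in the promoter window, against 21.6%, and with the fewest ceh summits per kb (0.202, against 0.267). The promoter share of ceh summits was 22.3% in replicate 3, while other genes had 22.4%. It was 24.8% in replicate 4, where other genes had 22.3%. Of the 8 strong pairs in the pooled list 1 was in the promoter window, at ceh-86, 3 were in introns and 4 lay further upstream. Of 4995 strong pairs at other coding genes, 33.6% were in the promoter window, 17.0% in introns and 44.5% further upstream, and 8 ceh pairs are too few to compare with these shares. The ceh gene itself had the nearest coding 5′ end in 95 of 152 pairs (62.5%), against 54.4%, so the other pairs lay nearer to a neighbouring gene.

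**Figure D5:**
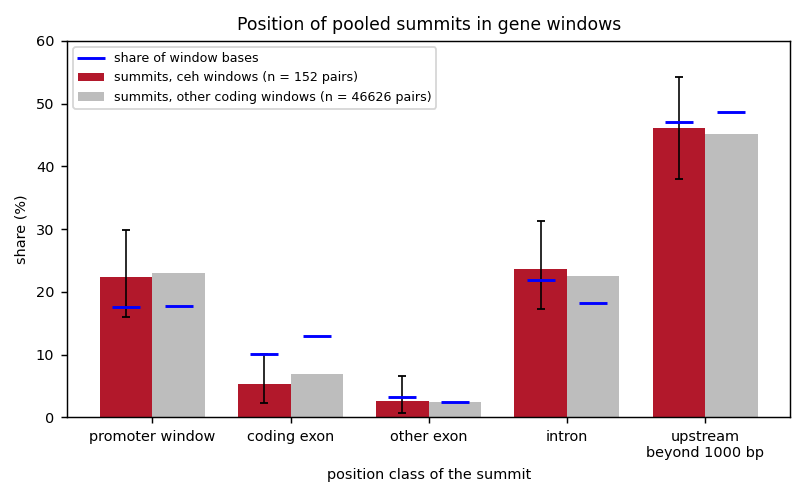
Percent of gene and summit pairs in each position class for ceh genes and other coding genes, with exact 95% intervals on the ceh bars and blue marks for the percent of window bases in that class. The intervals treat pairs as separate draws. The promoter window holds 22.4% of ceh pairs, against 23%, and the upstream sequence beyond 1000 bp holds 46.1%, against 45.1%.

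Base composition and short motifs were counted in the 101 bases around each pooled summit, on both strands. GC content was 37.8% ± 10.4 (SD, 146 summits) in ceh windows and 38% ± 9.89 in other coding windows. TAAT, which lies within TAATTA, was in 86 ceh windows (58.9%), against 58.2%, and TAATTA in 7 (4.79%), against 4.67%. GTTCGA was in 10 (6.85%), against 3.79%, and in 8 of the 140 that were over 200 bp from a tRNA, snoRNA, snRNA or rRNA gene (5.71%), against 3.21% of the 27004 such summits in other coding windows. Of all ceh summits 6 (4.11%) lay within 200 bp of such a gene, against 2.22%, at ceh-39, ceh-43, ceh-89 and ceh-99. Those at ceh-39 lay by a single tRNA gene and those at ceh-43 by another, so the 6 are not separate cases. The counts are small, and a motif match describes the letters only.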

How the data were processed

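Per the labels, peaks are in ce11 coordinates. Per the deposited file listing, the authors called a list for each replicate and a pooled list of peaks and background from all 3 replicates. They derived the optimal list by the irreproducible discovery rate. The sources used here do not name the aligner or the caller. The peak signal is the authors' deposited value and was used only to rank peaks within a list, ties sharing the lowest rank. Precision rests on the numbers of genes, peaks and replicates, since read depth was not analysed here.

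Gene models were those of Ensembl release 115. Matching summits lay within 100 bp. Similar windows were within 10% of a ceh gene's length, each ceh gene weighted equally. Intervals are exact Clopper-Pearson 95% intervals. The upstream window edge, the matching distance and the promoter and far-upstream classes were tested on simulated summits. The exon and intron classes were not tested in this way. Named genes were those with a strong summit, the 10 best ranks, the best of each class, the gene with most summits and those without any; others were chosen after their values were seen. The members and lists were chosen with earlier results of these data known. Alternatives varied flank, depth, matching distance, promoter window, assignment and list. Python 3.11.15, pandas 2.3.3, numpy 2.4.6, scipy 1.17.1 and matplotlib 3.10.9 were used.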

Additional observations from a re-analysis of the deposited data

How the results depend on the processing

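Of the alternative values computed for the ceh genes, 25 stayed within 1.5 times the reported count, or for the promoter share and the density within 1 SD of the replicates, and 20 moved, and the cause was not tested. The 46 genes with a pooled summit became 1 with the optimal list only, and the 146 summits became 95 when the ceh gene had to have the nearest coding 5′ end. The 7 genes with a strong pooled summit became 3 at a depth of 1000 and 14 at 5000, 4 with a flank of 2000 bp (6.67%, against 13.5% of other coding genes) and 18 with 10000 bp (against 27.1%, so that the ceh share was then the higher one), and 4 under the nearest 5′ end (6.67%, against 10.3%). Without summits near small RNA genes, an alternative chosen after seeing the data, they were 5 (8.33%, against 16.8%). In the lists of replicates 3 and 4, also chosen then, they were 12 and 11. The 4 summits found in every replicate became 1 at 50 bp and 11 to 14 when 1 replicate was left out. The 1 summit that was strong in every replicate became 1 to 3 when 1 replicate was left out. The promoter share of 22.4% became 13.2% from 500 bp upstream, 39.5% from 2000 bp upstream and 33.7% in replicate 1, where the density of 0.298 per kb became 0.202. The 1 optimal peak became 0 with a flank of 2000 bp and 3 with 10000 bp. No pairing of samples between conditions was possible because there is 1 group. Within each replicate list the ceh share and the share of other genes form a pair, and these pairs are given above without a test. Limits are the small number of ceh genes, the overlap of windows with neighbouring genes, the absence of a control precipitation from what was analysed here, and the low recurrence between replicates.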

Other observations

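Other homeobox genes, which do not carry the ceh name, were listed alongside for context. Of 34 such genes, among them unc-86, lin-11 and pal-1, 29 (85.3%) held a pooled summit, against 70.3% of all coding genes outside the ceh set. A strong one was held by 7 (20.6%, against 19.0%). Their windows had 0.438 summits per kb, against 0.302 for all coding genes outside the ceh set and 0.298 for the 60 ceh genes. Window length was not matched. The list was chosen with earlier results known and the differences were not tested.

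Chromosome position went with peak number in both sets. The 33 ceh genes in the central 50% of a chromosome's length had 0.234 summits per kb, against 0.233 for other coding genes there, and 2 (6.06%) had a strong pooled summit, against 17.7%. The 27 ceh genes in the outer parts had 0.363 per kb, against 0.374, and 5 (18.5%) had a strong one, against 20.6%.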
